A study of Mus musculus with 9 samples.

Results

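The expression of 9 genes known as markers of fat cells (adipocytes) was examined in mouse testis: Adipoq, Lpl, Cidec, Car3, Cfd, Fabp4, Plin1, Lep and Retn. They were taken by symbol from a table of read counts for 19991 genes, all 9 symbols were found there, and they are read here library by library as a possible sign of fat attached to the dissected testis. The mice were of the outbred ICR stock and 8 weeks old, and received an injection of PBS (Control), of AZ82 at 1 µM or of CW069 at 50 µM. Both compounds inhibit KIFC1, a spindle kinesin, and are known here by code names. Each group held 3 libraries of whole-testis RNA. Whether each library stands for its own animal is not given in the labels, nor is the time after injection, so p-values cover only the spread among these libraries, and part or all of it may be technical.

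A fat cell stores triglyceride in a single large droplet. Lipoprotein lipase releases fatty acids from circulating lipoproteins, fatty acid binding protein carries them inside the cell, and perilipin and CIDE proteins coat and enlarge the droplet. Fat cells also secrete hormones and other proteins, called adipokines, into the blood. The seminiferous tubules hold no fat cells, but a fat pad lies against the testis and epididymis and can be cut away incompletely. In whole-testis RNA, fewer cells of a type and less RNA per cell cannot be told apart.

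All 9 genes were highest in AZ82 2, but they did not all vary alike. Car3, Cfd, Cidec, Fabp4 and Lpl varied together from library to library, with the second highest level of each in Control 1, and Retn followed them in part. Adipoq, Plin1 and Lep, which are among the genes that define a fat cell, varied less or apart from them, and Control 1 was not second in any of these 3. Lep, with 39 counts in all, was too low to show whether it varied with Car3, Cfd, Cidec, Fabp4 and Lpl. Adipoq stood between 10.1 and 14.2 CPM (counts scaled to library size) in all 9 libraries. No difference between the treatment groups was detected for any of the genes.

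Total counts ran from 13856070 in Control 3 to 18102593 in CW069 3. Levels are given as CPM, counts scaled to library size after TMM scaling, a correction for differences in composition between libraries. Summed over 9 elongating spermatid genes the level was 6324 to 17981 CPM, and over 9 Leydig cell genes 1463 to 1937 CPM, so markers of germ cells and of hormone-producing cells were abundant. Summed over the 9 adipocyte genes it was 22.0 to 90.4 CPM. Control 3 stood apart in the elongating spermatid genes, with a median log2 ratio of -1.12 to the median library. Control 1 was high in the red blood cell, macrophage and connective tissue genes (0.57, 0.29 and 0.30). Other libraries departed too: Control 3 was at -0.72 in red blood cell genes, and AZ82 3 and CW069 1 at 0.50 and 0.52 in mesothelium genes.

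Promoter sequences are shown for 4 members. Genes that moved together (Cfd, Cidec) can thus be set beside Adipoq, which did not, and Lep, whose 39 counts are too few to tell. RefSeq's promoter table (GRCm38.p6, an earlier build than the GRCm39 of the counts) held 6 of the 9 members with 7 start sites. Each line gives the 150 bases directly before a start site, 5′ to 3′ on the gene's strand. Capitals mark a match to CCAAT (a box bound by NF-Y) or to GCGCAA (part of a site bound by C/EBP factors) on either strand.
Cfd, chr10:79890703-79890852, plus strand: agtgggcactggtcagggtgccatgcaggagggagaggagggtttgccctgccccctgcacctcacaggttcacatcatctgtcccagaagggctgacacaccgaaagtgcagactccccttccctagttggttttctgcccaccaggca
Cidec, upstream start, chr6:113435761-113435910, minus strand: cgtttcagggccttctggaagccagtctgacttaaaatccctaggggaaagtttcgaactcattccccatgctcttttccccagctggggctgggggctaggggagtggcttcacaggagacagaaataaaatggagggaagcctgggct
Adipoq, chr16:23146386-23146535, plus strand: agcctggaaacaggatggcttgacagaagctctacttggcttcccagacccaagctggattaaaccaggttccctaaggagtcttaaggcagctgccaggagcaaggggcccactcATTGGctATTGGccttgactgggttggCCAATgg
Lep, chr6:29060071-29060220, plus strand: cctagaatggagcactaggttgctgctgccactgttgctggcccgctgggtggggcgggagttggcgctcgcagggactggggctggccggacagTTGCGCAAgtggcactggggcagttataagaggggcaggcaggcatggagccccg
CCAAT was found in 1 of the 7 member windows, that of Adipoq, against 24.5% of 32851 windows of the same length. GCGCAA was found in 1 of 7, that of Lep, where matches on the 2 strands overlap, against 3.73% of all windows. TATAAA (a form of the TATA box) and AGGTCA (a nuclear receptor half-site) were found in 0 of 7, against 7.57% and 8.58%. The Cfd and Cidec windows held none of these 4 letter strings. Variant spellings, such as TATAAG in the Lep window, were not searched for. These are matches of letters, not sites at which a factor was shown to bind.

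The genes of lipid uptake and storage came first. Car3 encodes a cytosolic carbonic anhydrase that is abundant in fat and muscle. In the order 1, 2, 3, the Control libraries held 17.5, 1.54 and 7.52 CPM of Car3, the AZ82 libraries 2.98, 29.9 and 6.13 CPM, and the CW069 libraries 7.12, 1.57 and 6.25 CPM. The same order is used below for every gene. AZ82 2 was high, Control 1 next, and Control 2 and CW069 2 lowest. The counts behind these ends were 419 in AZ82 2 and 24 in Control 2, a ratio of 19.4 in CPM. Over the 9 libraries the variance of the Car3 counts was 138 times what counting error gives.

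Fabp4 encodes the fatty acid binding protein of fat cells. Control held 4.97, 0.834 and 2.39 CPM, AZ82 held 1.09, 12.6 and 1.88 CPM, and CW069 held 2.67, 1.16 and 1.31 CPM. AZ82 2 exceeded the median of the other 8 libraries by 7.94-fold, and the groups overlapped. Lpl, the lipase that frees fatty acids at the vessel wall, had Control levels of 10.5, 4.17 and 6.45 CPM, AZ82 levels of 4.29, 14.9 and 4.98 CPM, and CW069 levels of 5.89, 3.76 and 4.43 CPM. Its range was narrower, 3.95-fold from CW069 2 to AZ82 2, and no library fell below 3.76 CPM. Lpl is also made in muscle, heart and other tissues.

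Cidec, which enlarges lipid droplets by moving lipid between them, had 27, 6 and 17 counts in the Control libraries, 3, 54 and 7 in the AZ82 libraries, and 8, 0 and 17 in the CW069 libraries. The 54 counts of AZ82 2 correspond to 3.86 CPM (95% Poisson interval of the count 2.90 to 5.03). For the 0 counts of CW069 2 a floor of 3 counts, or 0.205 CPM, was set, and the measured level of AZ82 2 was 18.8-fold above it. The 95% Poisson interval of those 0 counts reaches higher, to 0.252 CPM. Interval and floor cover counting error only. Plin1, the perilipin that coats the droplet and gates its breakdown, varied less than Cidec, 2.37-fold from Control 3 to AZ82 2. Control held 3.59, 3.47 and 2.26 CPM of it, AZ82 held 2.55, 5.36 and 2.89 CPM, and CW069 held 3.22, 3.83 and 3.24 CPM. AZ82 2 was again highest, at 1.66 times the median of the others, but Control 1 lay among the rest. CW069 2, lowest or next to lowest in Car3, Cfd, Cidec and Lpl, was second highest in Plin1.

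Among the secreted proteins, Cfd (adipsin), a protease that activates the alternative complement pathway, behaved like Car3. The Control libraries had 43, 8 and 25 counts of Cfd (2.97, 0.513 and 1.66 CPM). The AZ82 libraries had 3, 83 and 19 (0.218, 5.93 and 1.37 CPM), and the CW069 libraries 23, 2 and 27 (1.58, 0.137 and 1.53 CPM). AZ82 2 lay 4.08-fold above the median of the other 8.

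Adipoq encodes adiponectin, a hormone that raises insulin sensitivity and is regarded as highly specific to fat cells. Control held 11.9, 12.7 and 10.1 CPM of Adipoq, AZ82 held 10.8, 14.2 and 10.6 CPM, and CW069 held 12.9, 10.4 and 10.3 CPM. The highest library was only 1.41 times the lowest, and the variance of its counts was 2.67 times what counting error gives. The counting interval of AZ82 2 (12.3 to 16.3 CPM) overlapped that of Control 1 (10.2 to 13.9) but lay above that of Control 3 (8.57 to 11.9), CW069 2 (8.81 to 12.2) and CW069 3 (8.89 to 12.0). The SD of its log2 level over the libraries was larger than that of 54.9% of tested genes, close to the middle. By the same measure Car3 exceeded 99.9% of genes, Cfd and Fabp4 99.7%, Cidec 99.6%, Lpl 98.7%, Retn 97.6% and Plin1 87.0%.

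Retn (resistin), an adipokine that opposes insulin in mice, stood between these patterns. Its Control levels were 2.28, 0.963 and 1.40 CPM, its AZ82 levels 1.75, 3.07 and 1.15 CPM, and its CW069 levels 1.30, 0.958 and 0.625 CPM. AZ82 2 and Control 1 were the 2 highest libraries, and the third was AZ82 1, one of the low libraries for Car3 and Cfd. Lep encodes leptin, the hormone that reports fat stores to the brain. It had 39 counts in all, with 0, 5 and 7 in the Control libraries, 6, 8 and 2 in the AZ82 libraries, and 2, 3 and 6 in the CW069 libraries. Its 0 counts fell in Control 1, the library next highest in 6 of the other genes, where the floor of 3 counts is 0.207 CPM. Lep did not pass the filter on low counts and was not tested between groups; the 8 other genes passed.

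**Figure D1:**
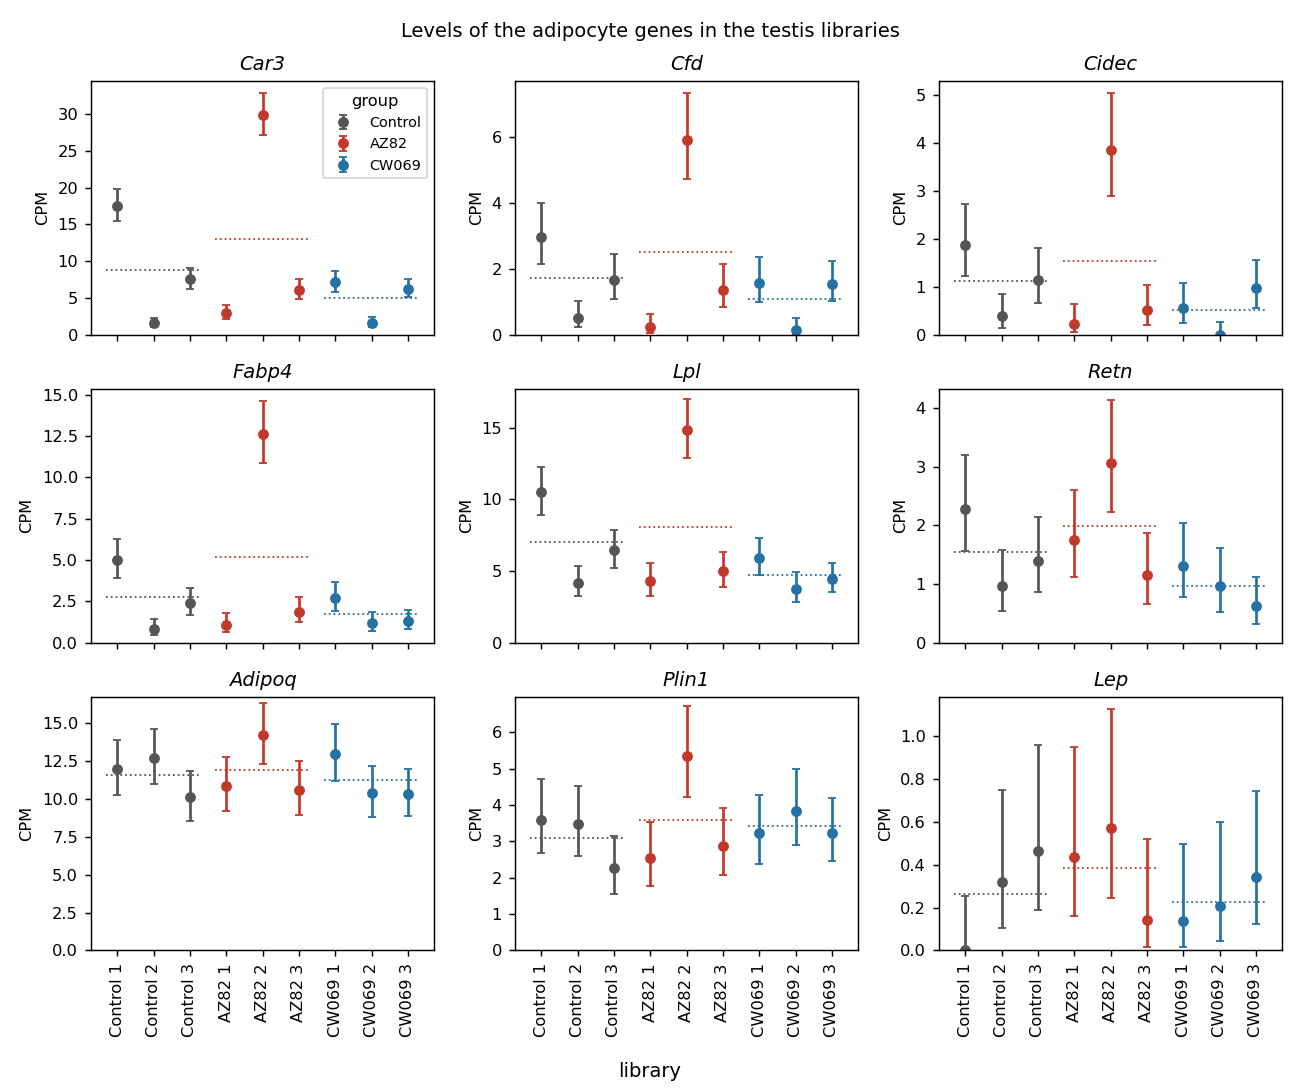
Level in CPM (y axis, from 0, a scale of its own in each panel) of each adipocyte gene in each library (x axis). Points are single libraries coloured by group, bars are exact 95% Poisson intervals of the count, and dotted lines are group means; AZ82 2 is the highest point in all 9 panels, while Adipoq lies between 10.1 and 14.2 CPM throughout.

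Levels of different genes can be compared only per length. Divided by the longest coding transcript of GENCODE M21, the median over the libraries was highest for Adipoq, at 8.39 CPM per kilobase (range 7.82 to 11.0). Car3 followed at 3.72 (0.917 to 17.8), then Fabp4 at 2.09 (0.931 to 14.1), Cfd at 1.66 (0.148 to 6.43), Lpl at 1.21 (0.915 to 3.61), Plin1 at 1.15 (0.803 to 1.90) and Retn at 1.14 (0.548 to 2.70). Cidec was at 0.319 (0 to 2.24) and Lep lowest at 0.0985 (0 to 0.175). Each gene's range overlapped that of its neighbours in this order, so the order holds for the medians and not for every library. In AZ82 2 both Car3 and Fabp4 lay above Adipoq per kilobase, in Control 1 Car3 did, and in the other 7 libraries Adipoq led. The models of 0 of the 9 genes overlap another annotated gene.

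By library, AZ82 2 was the highest of the 9 for 9 of 9 members, and Control 1 second for 6 of them (Lpl, Cidec, Car3, Cfd, Fabp4 and Retn). The median log2 ratio of the 9 genes to the median library was 1.49 in AZ82 2 and 0.77 in Control 1, and -0.36 to 0.23 in the other 7 libraries. Among all tested genes, 9.78% were highest in AZ82 2, 0.505% were at least doubled there against the median of the other 8, and 2.85% had AZ82 2 and Control 1 as their 2 highest libraries. Of the 8 tested members, 8, 6 and 6 met these descriptions. The genes were proposed with the high level of AZ82 2 already known, so these counts only describe the library.

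The excess in AZ82 2 was unequal among the genes. Above the median of the other 8 libraries, Car3 stood higher by 23.7 CPM, Fabp4 11.0, Lpl 10.1, Cfd 4.47, Adipoq 3.49, Cidec 3.33, Plin1 2.13, Retn 1.84 and Lep 0.308. As ratios, Fabp4 (7.94) and Cidec (7.32) led, followed by Car3 (4.83), Cfd (4.08), Lpl (3.16), Retn (2.50), Lep (2.17, from 8 counts), Plin1 (1.66) and Adipoq (1.33). Control 1 against the median of the 7 libraries without AZ82 2 gave a similar order: 3.80 for Fabp4, 3.69 for Cidec, 2.86 for Car3, 2.37 for Lpl, 2.16 for Cfd and 1.97 for Retn, but 1.13 for Adipoq and 1.12 for Plin1, while Lep had 0 counts there.

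**Figure D2:**
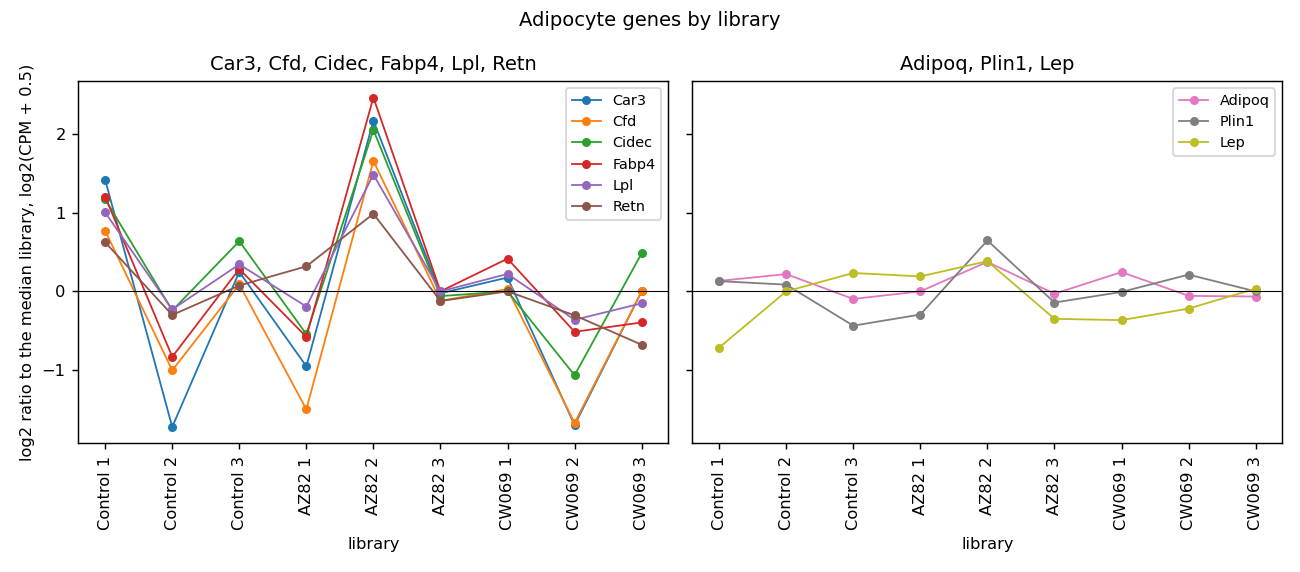
Log2 ratio of each library to the median library, computed on log2(CPM + 0.5) (y axis), for the 9 genes across the libraries (x axis), with the genes split into 2 panels by the pattern seen. Lines join a gene's values for reading and the order of libraries has no meaning. Car3, Cfd, Cidec, Fabp4, Lpl and Retn peak in AZ82 2 and Control 1, and Adipoq and Plin1 stay nearer to 0 there. Lep, at most 0.571 CPM, is drawn toward 0 by the added 0.5 and still lies at -0.72 in Control 1.

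How closely the genes moved together was measured as correlations of log2(CPM + 0.5) over the 9 libraries, for all 36 pairs, with two-sided exact permutation tests and Benjamini-Hochberg adjustment over the 36. The genes were chosen for a shared pattern partly known, which these p-values do not allow for. Car3, Cfd, Cidec, Fabp4 and Lpl were also grouped after their levels were seen. The number of their pairs that passed therefore only describes that grouping. All 10 pairs among Car3, Cfd, Cidec, Fabp4 and Lpl passed by both measures, with Pearson's r from 0.89 to 0.98 (exact permutation, adjusted p from 0.000198 to 0.00637) and Spearman's rho from 0.85 to 0.98 (exact permutation, adjusted p from 0.00179 to 0.0219). For Car3 and Cfd, r was 0.96 (exact permutation p = 0.000157, adjusted p = 0.000942) and rho 0.95 (exact permutation p = 0.000353, adjusted p = 0.00254). Without the 2 libraries farthest from the median of the first gene, r in these 10 pairs was 0.53 to 0.96. Without AZ82 2 and Control 1 it was 0.53 to 0.91 over the remaining 7. As deviations from the group means r was 0.90 to 0.99, so the relation was not one of group means alone. These deviations include AZ82 2 and Control 1 and were not recomputed without them.

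Retn was linked less firmly. Of its pairs with those 5 genes, 2 passed by Pearson's r, Lpl (0.86; exact permutation p = 0.00309, adjusted p = 0.0101) and Fabp4 (0.83; exact permutation p = 0.00502, adjusted p = 0.0151). None of the 5 passed by Spearman's rho (lowest adjusted p = 0.0834 by the exact permutation test). Without the 2 farthest libraries, r of Retn with the 5 genes was -0.15 to 0.45, so the relation rested on the libraries left out, AZ82 2 and 1 other in each pair. For Adipoq, 0 of 8 pairs passed, with r from 0.05 to 0.70, and the largest r was that with Plin1 (exact permutation p = 0.0302, adjusted p = 0.0778). For Adipoq and Car3, r was 0.44 (exact permutation p = 0.232, adjusted p = 0.321), rho 0.22 (exact permutation p = 0.581, adjusted p = 0.884), and r without the 2 farthest libraries -0.09. Pairs with Plin1 and with Lep passed in 0 of 8 cases each, and for Lep r ran from -0.01 to 0.18. With 39 counts of Lep in all, these values cannot show whether it moved with the other genes.

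**Figure D3:**
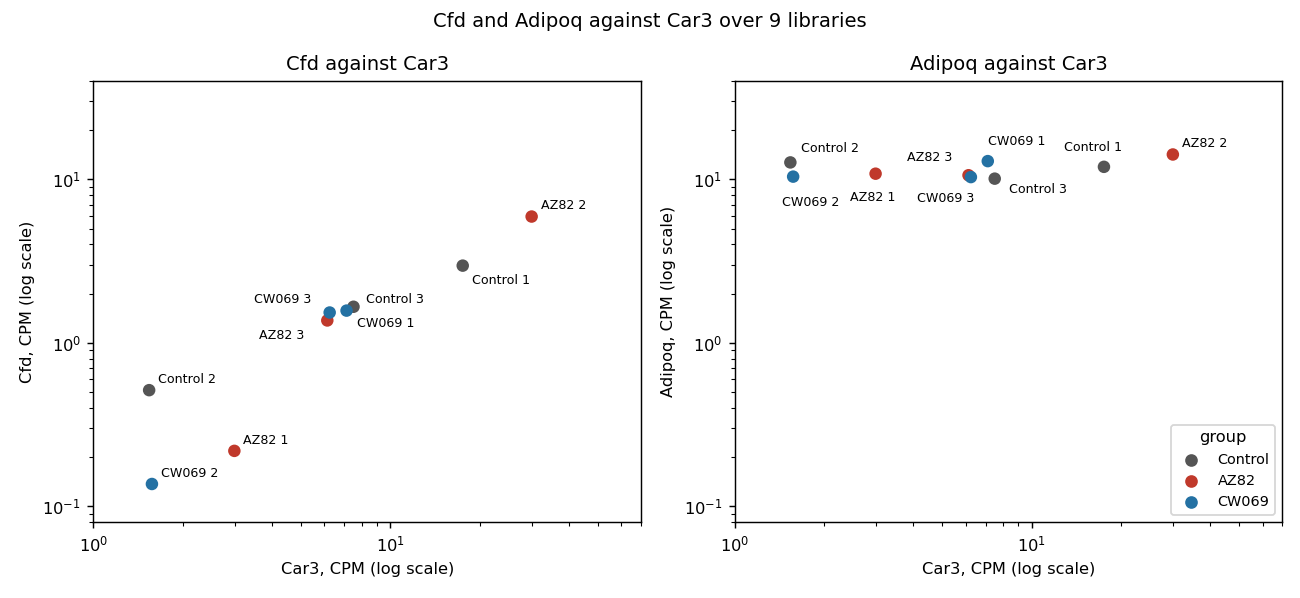
Cfd (left, y axis) and Adipoq (right, y axis) against Car3 (x axis), in CPM on log scales that are the same in both panels; each point is 1 library, named and coloured by group. Cfd climbs with Car3 from CW069 2 to AZ82 2 (r = 0.96), while Adipoq lies at 10.1 to 14.2 CPM across the whole range of Car3.

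The ratio of a gene to Car3 was also read without any scaling, as the gene's share among its own reads and those of Car3. Cfd made up 14.5% of Cfd and Car3 reads in Control 1 (exact 95% binomial interval 10.7% to 19.0%) and 16.5% in AZ82 2 (13.4% to 20.1%). The other libraries with at least 19 Cfd reads, Control 3, AZ82 3, CW069 1 and CW069 3, lay at 18.1%, 18.3%, 18.1% and 19.7%. The 3 libraries with 8 or fewer Cfd reads gave 25.0%, 6.82% and 8.00%, with intervals that include 16.5%. The interval of every library thus includes the share seen in AZ82 2, while Car3 itself ranged 19.4-fold. The same held for Cidec, on fewer reads. Its share was 11.4% (8.69% to 14.6%) in AZ82 2 and 9.61% (6.43% to 13.7%) in Control 1. The Cidec interval of every library includes 11.4%, that of CW069 2, with 0 Cidec reads, reaching 14.8%. With so few reads these intervals are wide and leave room for a varying ratio. Fabp4 gave 17.3% (11.3% to 24.8%) in CW069 3 to 42.5% in CW069 2, with 22.1% (17.7% to 27.0%) in Control 1 and 29.7% in AZ82 2. The intervals of CW069 3 and Control 1 thus lay below the share of AZ82 2. Lpl, although correlated with Car3, ran from 73.0% (62.6% to 81.9%) in Control 2 down to 33.2% (29.5% to 37.0%) in AZ82 2, and Retn from 38.5% in Control 2 to 9.31% in AZ82 2 and 9.09% in CW069 3. The share of Adipoq among its own and Car3 reads ran from 89.2% (84.3% to 92.9%) in Control 2 down to 40.5% in Control 1 and 32.2% (28.5% to 36.0%) in AZ82 2, and that of Plin1 from 70.9% in CW069 2 to 15.2% in AZ82 2. Lpl, Retn, Adipoq and Plin1 thus did not keep a constant ratio to Car3, each having its largest shares in libraries low in Car3. The ratio of Fabp4 to Car3 varied as well. Whether any of these reads came from attached fat was not tested.

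AZ82 against Control asked whether the adipocyte genes differed after the first inhibitor. With edgeR's quasi-likelihood test over 15834 genes, 0 of the 8 tested members had an adjusted p under 0.05, where 0% of all genes did. DESeq2 and limma-voom likewise called 0 of them. At an unadjusted p under 0.05 there were 0 members against 8.84% of all genes, and in 0 of 9 members did the groups fail to overlap, against 15.3% of tested genes. The 8 log2 fold changes lay above 0, with a median of 0.41 beside -0.001 over all genes; with library size alone Adipoq was at -0.039, and in limma-voom Cidec at -0.23 and Cfd at -0.093. Fabp4 had the largest, 0.94 ± 0.81 (SE; 95% interval -0.86 to 2.74; edgeR adjusted p = 0.721), with 5.20 ± 6.45 against 2.73 ± 2.09 CPM (SD, n = 3 each). Car3 had 0.56 ± 0.86 (95% interval -1.33 to 2.46; edgeR adjusted p = 0.847), with 13.0 ± 14.7 against 8.86 ± 8.08 CPM. The SD exceeded the mean in the AZ82 group for both. Cfd had 0.56 ± 0.90, Cidec 0.45 ± 0.93, Retn 0.37 ± 0.42, Plin1 0.21 ± 0.29 and Lpl 0.20 ± 0.45. Adipoq, with 11.9 ± 2.02 against 11.6 ± 1.34 CPM, had 0.04 ± 0.15 and the narrowest interval, -0.30 to 0.37, which excludes a change of 1.5-fold in either direction.

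The sign of these values depended on AZ82 2. Without it all 8 lay below 0, with Cidec at -1.60, Cfd at -1.09, Car3 at -0.95, Fabp4 at -0.87, Lpl at -0.60, Plin1 at -0.19, Adipoq at -0.11 and Retn at -0.08 (edgeR adjusted p from 0.688 to 0.964). Without Control 1 they were larger, with Fabp4 at 1.69, Car3 at 1.53, Cfd at 1.21, Cidec at 1.02, Retn at 0.76 and Lpl at 0.60.

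CW069 against Control asked the same of the second inhibitor, at its different dose. Again edgeR called 0 of 8 members, where 0% of all genes were called, and so did DESeq2 and limma-voom. Members with an unadjusted p under 0.05 numbered 0, against 7.34% of genes, and those without overlap 0 of 9, against 13.4%. Here 7 of 8 log2 fold changes lay below 0, with a median of -0.65 (all genes -0.004). They were -1.08 ± 1.07 for Cidec, -0.81 ± 0.91 for Car3, -0.69 ± 0.45 for Retn, -0.67 ± 0.90 for Fabp4, -0.63 ± 0.98 for Cfd, -0.58 ± 0.47 for Lpl and -0.05 ± 0.15 for Adipoq. Plin1 had 0.14 ± 0.29, and the smallest adjusted p of the 8 was 0.746, for Retn. Mean levels of Car3 were 4.98 ± 2.98 CPM after CW069 and 8.86 ± 8.08 CPM in Control (SD, n = 3 each). Without Control 1, Car3 stood at 0.15, Fabp4 at 0.08 and Cfd at 0.02, and Lpl, Retn and Cidec at -0.18, -0.31 and -0.51.

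CW069 against AZ82 compared the inhibitors, which were given at different doses, so the values stand side by side and show no ranking of the compounds. In edgeR 0 of 8 members had an adjusted p under 0.05, where 0% of all genes did, and DESeq2 and limma-voom called 0 as well. In 0 of 9 members did the groups fail to overlap, against 11.3% of genes. Retn was the 1 member with an unadjusted p under 0.05, against 4.97% of genes, at 0.961 ± 0.338 against 1.99 ± 0.981 CPM (log2 fold change -1.06 ± 0.44, 95% interval -2.04 to -0.08; edgeR unadjusted p = 0.0360, adjusted p = 0.977). All 8 log2 fold changes lay below 0 (median -1.13, all genes -0.001), from -1.61 ± 0.86 for Fabp4 to -0.07 ± 0.28 for Plin1. Without AZ82 2, 7 of the 8 lay above 0, at 0.52 for Cidec, 0.46 for Cfd, 0.33 for Plin1, 0.20 for Fabp4, 0.14 for Car3, 0.06 for Adipoq and 0.02 for Lpl, and Retn at -0.61. The 3 comparisons share libraries in pairs, so they are no independent support for each other.

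**Figure D4:**
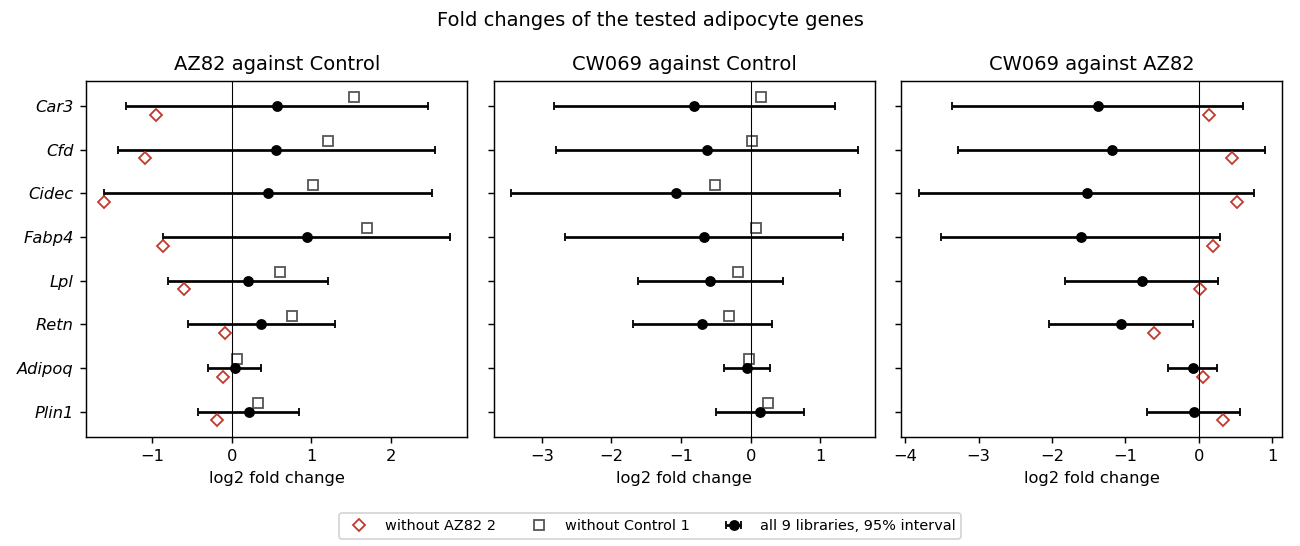
Log2 fold change (x axis) of the 8 tested adipocyte genes (y axis) in the 3 comparisons. Black points with bars are the values over all 9 libraries with 95% intervals, and open symbols are the values without AZ82 2 (diamonds) or without Control 1 (squares); every member crosses 0 in the AZ82 comparison with Control when AZ82 2 is left out.

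Other genes of fat cells gave a mixed picture. Of 41 further adipocyte genes, such as regulators of the fat cell programme and enzymes of lipid synthesis and breakdown, 34 were tested. Of these, 5 were highest in AZ82 2 (all genes 9.78%), and 1 was at least doubled there (all genes 0.505%), Retnla, a relative of resistin, at 1.43 CPM. Retnla was as high in AZ82 3, at 1.44 CPM. AZ82 2 and Control 1 were the 2 highest libraries for 5 of the 34 (all genes 2.85%): Plin4, Scd1, Thrsp, Cd36 and G0s2. Of the 7 untested genes, 5 stood at over 2-fold in AZ82 2, on 18 counts for Pnpla3, 20 for Pck1, 5 each for Sncg and Slc36a2 and 3 for Adrb3. Sncg was highest in Control 3, on 9 counts, and Slc36a2 had 5 counts in Control 1 too. The share over all untested genes was not computed, so this only describes genes of low count. The median log2 ratio of the 34 in AZ82 2 was 0.00. Pparg, the master regulator of fat cell formation, was at 2.60 to 3.50 CPM in all libraries, and Cebpa, its partner, at 1.85 to 3.21 CPM. Scd1, a desaturase of fatty acid synthesis, was at 58.8 CPM in AZ82 2 and 46.2 CPM in Control 1 against 27.8 to 40.8 CPM elsewhere. Plin4, a droplet coat protein, was at 4.57 and 3.66 CPM there against 1.73 to 3.59 CPM, and Cd36, a fatty acid transporter, at 48.3 and 54.6 CPM against 28.5 to 41.8 CPM. Some list members stood far above the 9 genes in this whole-testis RNA. Lipe, the hormone-sensitive lipase, was at 225 to 588 CPM, Aqp7, a glycerol channel, at 128 to 200 CPM, and Dgat2, which makes triglyceride, at 201 to 269 CPM. Which cells these reads came from was not tested.

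In the comparisons, edgeR called 0 of these 34 genes each time, with medians of 0.01, -0.01 and -0.03 in AZ82 against Control, CW069 against Control and CW069 against AZ82, and 6, 5 and 0 of the 34 at an unadjusted p under 0.05, beside 8.84%, 7.34% and 4.97% of all genes. The adiponectin receptor gene Adipor2 had -0.19 ± 0.07 after AZ82 and -0.25 ± 0.07 after CW069, against the same Control libraries. Its Control libraries lay at 62.1 to 69.2 CPM and its AZ82 libraries at 57.2 to 60.0 CPM. Its CW069 libraries lay at 51.8 to 58.9 CPM, so neither treated group overlapped Control. Among the 34 genes, 5 did not overlap after AZ82 and 6 after CW069, beside 15.3% and 13.4% of all tested genes. Cd36 had -0.58 ± 0.18 after CW069, at 30.8 ± 2.21 against 46.1 ± 7.39 CPM. These genes missed the threshold over all genes (lowest edgeR adjusted p = 0.524, that of Adipor2 after CW069).

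Markers of other cell types near fat gave their own profiles. In AZ82 2 the median log2 ratio was -0.09 for adipose stroma and loose connective tissue (12 genes), -0.13 for endothelium (12), 0.03 for macrophages (12), 0.06 for skeletal muscle (6 tested), 0.05 for mesothelium (8), 0.12 for Leydig cells (9) and -0.28 for red blood cells (4 tested). Control 1, in contrast, was also high in connective tissue, macrophage and red blood cell genes, as given above. Over the 2 epididymis genes that passed the filter its median log2 ratio was 0.82, but only 1 of them, Spink8, was highest there. The part of those cells in its adipocyte gene levels was not tested. The brown fat gene Ucp1 was at 0 to 0.274 CPM. Of the 2 epididymis genes that passed, Rnase10 was at 2.50 to 5.17 CPM, highest in AZ82 1, with 4.56 CPM in Control 1. Spink8 was at 3.24 CPM in Control 1, 2.26 CPM in Control 3 and 0.341 to 0.958 CPM in the other 7. Summed over all 10 epididymis markers the level was 3.69 to 8.21 CPM, highest in Control 1 and 6.07 CPM in AZ82 2. In Control 1, 5 of the 10 markers had 0 counts.

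**Figure D5:**
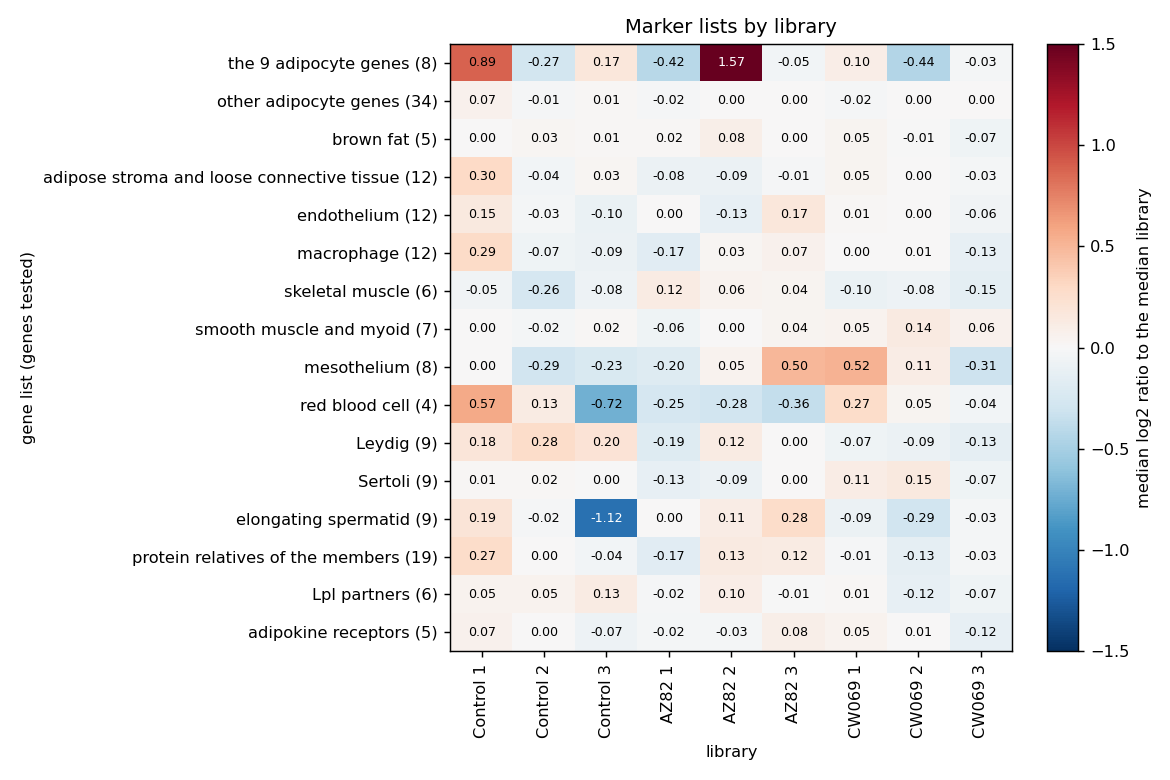
Median log2 ratio to the median library (colour and printed value) of the tested genes of each marker list (rows, number of genes tested in brackets) in each library (columns). The row of the adipocyte genes, here over the 8 tested, reaches 1.57 in AZ82 2 and 0.89 in Control 1, while the 34 other adipocyte genes stay between -0.02 and 0.07.

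The members belong to families with other representatives in testis. Fabp9, a fatty acid binding protein of spermatids, was at 573 to 800 CPM and Fabp3, the heart form, at 113 to 193 CPM, against 0.834 to 12.6 CPM for Fabp4. Plin2, the droplet coat of most cells, was at 64.4 to 78.6 CPM, Cidea at 4.36 to 7.67 CPM and Car2 at 33.6 to 169 CPM. Of 19 tested relatives, 3 were highest in AZ82 2 and 1, again Retnla, was at least doubled there, though it was highest in AZ82 3. edgeR called 0 of 19 in each comparison, with 1, 3 and 1 of the 19 at an unadjusted p under 0.05 in the same order of comparisons, beside 8.84%, 7.34% and 4.97% of all genes. Among the partners of Lpl, Lmf1, needed for its folding, was at 90.7 to 111 CPM, Angptl4, which inactivates it, at 3.79 to 13.3 CPM, and Gpihbp1, which anchors it to the vessel wall, at 0.114 to 0.577 CPM. Angptl4 was highest in Control 1, at 13.3 CPM against 6.86 CPM in the next library, AZ82 2. edgeR called 0 of 6 tested partners in each comparison. Of 5 adipokine receptor genes edgeR called 0, and the leptin receptor gene Lepr was at 0.200 to 1.09 CPM.

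The genes most like Adipoq over the 9 libraries, the other members left out, were sought among 1867 tested genes whose mean reached 0.5 CPM and whose range reached 2-fold. The nearest by Pearson's r of log2(CPM + 0.5), given as a description, were 1700025G04Rik (0.88), Hoxc8 (0.86), Bdh2 (0.84), Plac8 (0.83), A330070K13Rik (0.82), G0s2 (0.82), Nemp2 (0.80), Acot10 (0.80), Vars2 (0.80) and Pou5f1 (0.80). Of these, 9 were highest in AZ82 2, and G0s2, an inhibitor of triglyceride breakdown, was the 1 gene that also stood in the list of further adipocyte genes.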

How the data were processed

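Testis RNA of 9 samples was sequenced from libraries of a stranded mRNA kit, per the labels' protocols. The deposited values are whole-number counts of reads per gene, made by the authors with Trimmomatic, HISAT2 and HTSeq on GRCm39, per the submitters' processing notes; versions, the strand setting and the treatment of shared reads are not given in the sources used here. The counts in the 9 files of single samples equalled the joint table. Groups follow the sample titles.

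After filterByExpr had dropped genes of low count by group, 15834 of 19991 were tested. TMM-scaled counts of all 9 libraries entered 1 fit in R 4.3.3 and edgeR 4.0.16, with a coefficient for each group and 6 residual degrees of freedom. The two-sided quasi-likelihood F test was adjusted by Benjamini-Hochberg over all tested genes, with a call at an adjusted p under 0.05. A gene did not overlap between groups when every library of 1 group exceeded every library of the other. The scripts were tested on simulated data. Poisson and Clopper-Pearson intervals (95%) and exact permutation tests used SciPy 1.17.1. DESeq2 1.42.0, limma-voom 3.58.1, RLE factors, library size alone, other filters, robust dispersion, the compared groups alone, a replicate block and each library left out were tried as alternatives. Leaving out AZ82 2 and Control 1 together, and the search for genes like Cfd, were added after seeing the data.

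The members and all gene lists were chosen with earlier results of these data known. Named genes were all 9 members, relatives and partners of the members, genes of each list with the smallest p, and the 10 genes most like Adipoq; Pparg, Cebpa, Scd1, Plin4, Lipe, Aqp7, Dgat2, Retnla, Thrsp, G0s2, Pnpla3, Pck1, Sncg, Slc36a2, Adrb3, Ucp1, Spink8, Rnase10 and the genes of the other observations were chosen after their values were seen. Replicate numbers only name the samples. Lengths and gene overlaps come from GENCODE M21. Protein sequences were not used here.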

Additional observations from a re-analysis of the deposited data

How the results depend on the processing

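No adipocyte gene was called in any comparison under any of the settings run, by edgeR, DESeq2 or limma-voom (lowest adjusted p over all settings 0.557). The directions were less stable. Of 72, 72 and 71 values under other settings in AZ82 against Control, CW069 against Control and CW069 against AZ82, 3, 0 and 0 changed sign; with libraries left out it was 16, 10 and 14 of 80 in each. The sign changes under other settings, all in AZ82 against Control, were Adipoq at -0.039 with library size alone, and Cidec at -0.23 and Cfd at -0.093 in limma-voom; the cause was not tested.

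Leaving out 1 library at a time, the log2 fold changes in AZ82 against Control ran from -0.11 to 0.11 for Adipoq, -0.60 to 0.60 for Lpl, -1.60 to 1.02 for Cidec, -0.95 to 1.53 for Car3, -1.09 to 1.21 for Cfd, -0.87 to 1.69 for Fabp4, -0.19 to 0.41 for Plin1 and -0.085 to 0.76 for Retn, the lowest always without AZ82 2. In CW069 against Control they ran from -0.16 to 0.024 for Adipoq, -1.32 to 0.15 for Car3, -1.07 to 0.021 for Cfd, -1.12 to 0.081 for Fabp4 and -0.042 to 0.26 for Plin1. In CW069 against AZ82 they ran from -0.19 to 0.064 for Adipoq, -1.08 to 0.016 for Lpl, -2.45 to 0.52 for Cidec, -1.85 to 0.14 for Car3, -1.73 to 0.46 for Cfd, -2.09 to 0.20 for Fabp4 and -0.27 to 0.33 for Plin1, the highest always without AZ82 2.

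Without AZ82 2 and Control 1 together, AZ82 against Control gave -0.090 for Adipoq, -0.19 for Lpl, -1.04 for Cidec, -0.44 for Cfd, -0.11 for Fabp4 and -0.078 for Plin1, with Car3 at 0.02 and Retn at 0.30. CW069 against Control gave 0.15 for Car3, 0.020 for Cfd and 0.082 for Fabp4. CW069 against AZ82 gave 0.064 for Adipoq, 0.016 for Lpl, 0.53 for Cidec, 0.13 for Car3, 0.46 for Cfd, 0.20 for Fabp4 and 0.33 for Plin1.

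The median level of the 9 genes kept its value within the spread of the libraries with library size alone or RLE factors. Set against the other libraries of its own group, Control 2 stood at -0.90 and CW069 1 at 0.48. The reference then holds Control 1 and 3 alone, or CW069 2 and 3 alone. Moves smaller than the SD of the group's library levels are not named. In the AZ82 group that SD includes AZ82 2 itself, so moves of AZ82 1 and AZ82 3 went unnamed.

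Same-numbered samples did not deviate together (correlations of deviations from the group means -0.17 to 0.05), so the numbers were not taken as pairs. With the replicate block 0 members were called in each comparison, and Car3 had 0.66 after AZ82 against Control, -0.75 after CW069 against Control and -1.40 in CW069 against AZ82.

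Depth limits Lep (39 counts in all), Cidec and Cfd most, where libraries with 0 to 3 counts make fold changes imprecise.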

Other observations

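A few further genes had their highest level in the libraries that led the adipocyte genes. Pnpla3, a lipase relative of the droplet, had 18 counts in AZ82 2 and 0 to 9 in the other libraries. Pck1, which feeds glycerol synthesis in fat and glucose synthesis in liver, had 20 counts in AZ82 2 and 2 to 10 elsewhere. Thrsp, a factor of lipid synthesis in fat and liver, stood at 12.0 CPM in Control 1, against 1.16 to 3.36 CPM in the other 8, with AZ82 2 at the upper end of these. These genes were picked after their values were seen.

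The search for genes of like pattern, repeated for Cfd in place of Adipoq after seeing the data and over the same 1867 genes, which leave out the members, gave C1galt1c1 (Pearson's r 0.92), Cyp2e1 (0.83), Rnf152 (0.82), Plin4 (0.81), Xpnpep2 (0.80), Scd1 (0.80), Hp (0.78), Samd9l (0.77), Bhmt (0.76) and Hnmt (0.74), as a description over 9 libraries. Cyp2e1, a cytochrome of liver and fat, was at 3.00 CPM in AZ82 2 and 3.59 CPM in Control 1, with a median of 1.70 CPM. Hp, the hemoglobin-binding protein haptoglobin, was highest in CW069 3, at 1.76 CPM. None of these 10 genes was among the 10 found for Adipoq. Among the members, Cidec (0.96), Car3 (0.96), Lpl (0.90) and Fabp4 (0.90) had an r with Cfd in or above this range.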
